A study of Mus musculus with 12 samples.

Results

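Schwann cells are the glia of peripheral nerve, and the 8 genes described here, Pmp22, Mbp, Prx, Mag, Sox10, S100b, Ncmap and Cnp, are genes of Schwann cells and their myelin measured in whole extensor digitorum longus (EDL) muscle. They were picked by gene symbol from 17752 genes in a table of FPKM values (fragments scaled to transcript length and to a size estimate for each library). Of the 8, 8 passed a filter of a mean of at least 0.5 FPKM, as did 12744 genes in all. The EDL, a fast-twitch hindlimb muscle, came from male mice that were 8 weeks old when they were given running wheels or left sedentary. The 4 groups of 3 libraries each were compared: WT sedentary, strNrip1-/- sedentary, WT trained and strNrip1-/- trained. In strNrip1-/- mice (Nrip1KO in the labels), floxed Nrip1, which encodes the transcriptional coregulator RIP140, is deleted by Cre under the muscle creatine kinase promoter, which is active in heart and skeletal muscle and is not a Schwann cell promoter. The controls (Ctrl in the labels) were littermates described by the study as WT. Training was voluntary wheel running for 8 weeks, and wheels were taken away before tissue was collected. The labels number the libraries of a group but do not say which animal each came from, so the p-values below measure the spread between libraries.

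Nrip1, the targeted gene, went against its labels. Its level was 3.60, 2.55 and 3.84 FPKM in the WT sedentary libraries, 15.5, 16.3 and 14.9 FPKM in strNrip1-/- sedentary, 2.53, 4.76 and 3.56 FPKM in WT trained and 20.7, 14.9 and 16.6 FPKM in strNrip1-/- trained. The libraries labelled strNrip1-/- thus held more Nrip1 signal than the libraries labelled WT, by 2.08 ± 0.20 (log2, SE) in sedentary and 2.14 ± 0.20 in trained muscle (limma, adjusted p = 0.000277 and 0.000208). Musk, the receptor kinase of the neuromuscular junction, was higher in the libraries labelled strNrip1-/-, by 1.39 ± 0.17 and 1.41 ± 0.17 (limma, adjusted p = 0.00141 and 0.00126). The study reported Musk as raised in strNrip1-/- EDL, in its RNA-seq of these groups and in protein by immunoblot. In direction, Musk thus went with its labels. Whether labels were exchanged or the Nrip1 row counts transcript left by the deletion was not tested, and every direction given below between genotypes is between libraries as labelled.

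A limb muscle holds the end of its motor and sensory nerve, and the large axons in it are wrapped by myelinating Schwann cells. Compact myelin is built from membrane proteins and a basic protein that hold its layers together, while other proteins sit in the uncompacted inner and outer parts of the sheath and link it to the axon and to the basal lamina. The transcription factor Sox10 is needed at every stage of the Schwann cell lineage and, with Egr2, switches on myelin genes. Muscle fibers do not myelinate, so in whole muscle such transcripts are commonly read as a measure of the nerve in the sample. The question asked of the 8 genes was whether they moved together across libraries.

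In mm10, Pmp22 is at chr11:63128982-63159547 (plus strand, 5 annotated transcripts) and Cnp at chr11:100574904-100591729 (plus, 4 transcripts). Prx is at chr7:27499324-27520214 (plus, 4 transcripts) and Mag at chr7:30899176-30914873 (minus, 8 transcripts). Sox10 is at chr15:79154908-79165240 (minus), S100b at chr10:76253853-76261159 (plus) and Ncmap at chr4:135369576-135398227 (minus). The span of some of the 8 overlaps that of a gene on the opposite strand. These are Cnp with Dnajc7, S100b with Dip2a, Mbp with the pseudogene Rpl21-ps8, Prx with Gm15541 and Ncmap with Gm12991. The library kit did not keep strand, so reads from any exons that overlap could not be told apart. Whether exons overlap was not examined.

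The 250 bases before the start site are shown for 4 of the genes because they carry the contrast of the report: the mean correlation with the other 7 genes over libraries, given further on, was 0.55 to 0.59 for Prx, Mag and Pmp22 and 0.15 for Cnp. RefSeq windows on GRCm38.p6 were used for 6 of the 8 genes (12 start sites), and Mbp and Sox10 were not among them. Where a gene had several, the farthest upstream whose first bases match an annotated transcript was taken. Capitals mark the 5-letter SOX cores CAAAG and CAATG and the EGR core GTGGGNG, searched on both strands. The windows are Prx chr7:27499074-27499323 (plus), Mag chr7:30914864-30915113 (minus), Pmp22 chr11:63128732-63128981 (plus) and Cnp chr11:100574689-100574938 (plus), each written 5′ to 3′ on the gene's own strand.
Prx: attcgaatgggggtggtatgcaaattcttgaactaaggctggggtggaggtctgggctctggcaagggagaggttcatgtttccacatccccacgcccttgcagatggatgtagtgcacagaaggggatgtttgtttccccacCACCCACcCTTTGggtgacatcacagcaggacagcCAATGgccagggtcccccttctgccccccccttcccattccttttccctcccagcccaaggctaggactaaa
Mag: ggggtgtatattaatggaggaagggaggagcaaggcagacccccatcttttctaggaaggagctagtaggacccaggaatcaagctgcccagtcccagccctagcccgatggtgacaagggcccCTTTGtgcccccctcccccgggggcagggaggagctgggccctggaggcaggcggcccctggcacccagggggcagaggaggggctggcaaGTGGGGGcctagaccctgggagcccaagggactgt
Pmp22: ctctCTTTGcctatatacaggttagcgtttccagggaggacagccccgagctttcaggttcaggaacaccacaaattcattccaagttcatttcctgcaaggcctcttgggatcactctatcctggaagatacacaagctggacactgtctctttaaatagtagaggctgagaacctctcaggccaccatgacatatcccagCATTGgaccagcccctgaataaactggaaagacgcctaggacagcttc
Cnp: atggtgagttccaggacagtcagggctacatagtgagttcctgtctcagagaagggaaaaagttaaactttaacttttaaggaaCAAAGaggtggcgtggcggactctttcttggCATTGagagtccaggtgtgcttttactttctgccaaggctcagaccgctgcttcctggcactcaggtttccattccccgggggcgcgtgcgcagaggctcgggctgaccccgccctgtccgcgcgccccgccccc
Counted from the start site, the Prx window held an EGR core at -107, a CAAAG core at -99 and a CAATG core at -72. The Mag window held a CAAAG core at -126 and an EGR core at -35, the Pmp22 window a CAAAG core at -246 and a CAATG core at -48, and the Cnp window a CAAAG core at -166 and a CAATG core at -135. These are short, common words: among 32851 RefSeq windows of this length, 48.6% held CAAAG, 32.6% held CAATG and 28.1% held the EGR core. The Cnp and Pmp22 windows each held both SOX cores and no EGR core, and a match in letters is not a binding site. Of the genes not shown, Ncmap (mean r 0.54) held neither SOX core in its farthest upstream window, and an EGR core at -175. The S100b window (mean r 0.25) held 1 CAAAG, 3 CAATG and 0 EGR cores, and its first bases match no annotated transcript. Whether the cores follow the contrast in correlation was not tested. Words this common in so few windows, with none for Mbp or Sox10, could not show it.

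**Figure D1:**
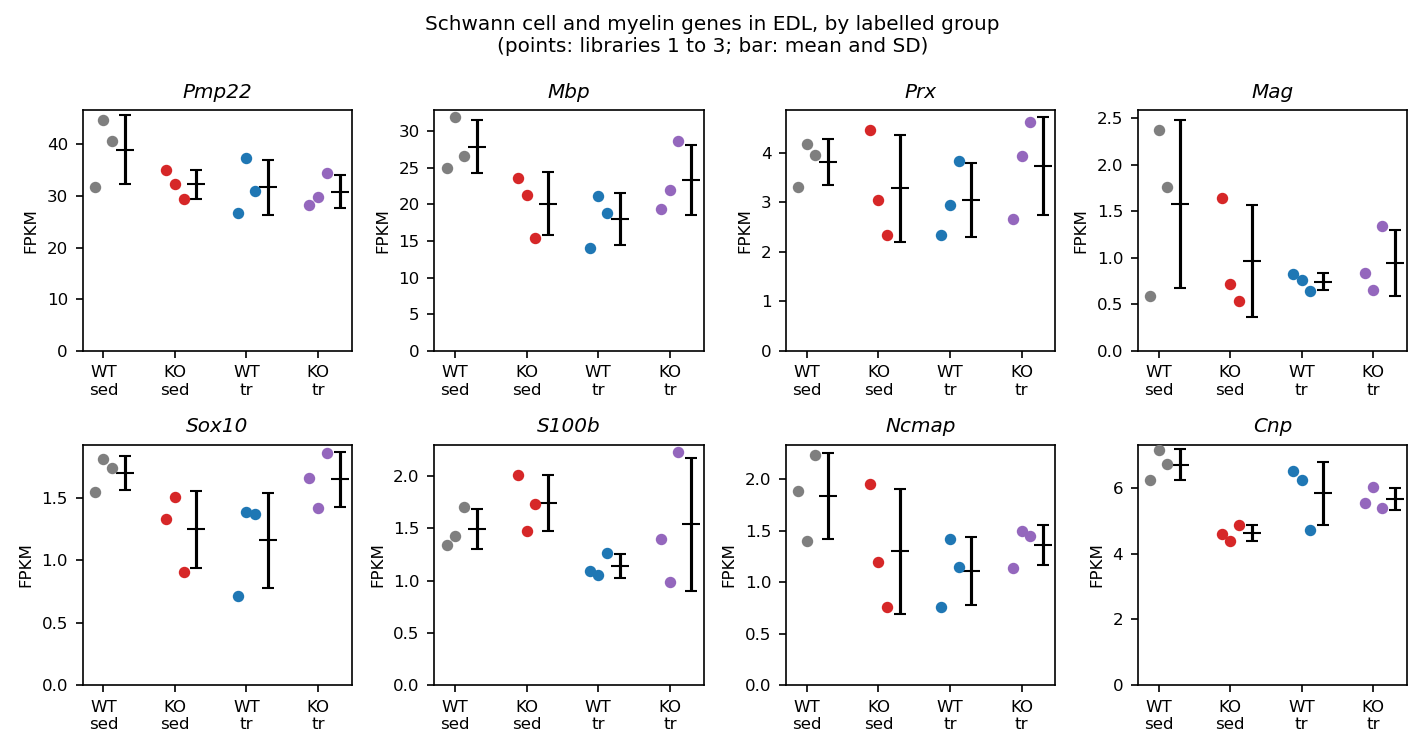
FPKM (linear axis from 0) of the 8 genes in the 12 EDL libraries, by labelled group (WT or strNrip1-/-, the latter marked KO; sed, sedentary; tr, trained). Points are libraries 1 to 3 and bars are the mean and SD (n = 3); for Cnp the strNrip1-/- sedentary libraries, 4.39 to 4.88 FPKM, sit under the WT sedentary ones, 6.23 to 7.17.

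Pmp22 and Mbp were the most abundant of the 8. Pmp22 encodes peripheral myelin protein 22, a membrane protein of compact myelin whose gene dosage causes inherited neuropathy. It measured 31.7, 44.7 and 40.7 FPKM in WT sedentary, 35.0, 32.4 and 29.4 in strNrip1-/- sedentary, 26.8, 37.3 and 30.9 in WT trained and 28.3, 29.7 and 34.5 in strNrip1-/- trained libraries. All 4 groups overlapped one another, and the highest library (WT sedentary 2) was 1.67 times the lowest (WT trained 1). Mbp encodes myelin basic protein, which holds the inner faces of the membrane together, on chromosome 18 (plus strand, 16 annotated transcripts). It measured 25.0, 32.0 and 26.7 FPKM in WT sedentary, 23.7, 21.3 and 15.4 in strNrip1-/- sedentary, 14.1, 21.2 and 18.8 in WT trained and 19.4, 22.0 and 28.7 in strNrip1-/- trained libraries. The 3 WT sedentary libraries lay above all libraries of strNrip1-/- sedentary and of WT trained. The strNrip1-/- trained libraries overlapped every other group. The difference between labelled genotypes in sedentary EDL was -0.48 ± 0.20 (log2, SE) for Mbp and -0.26 ± 0.15 for Pmp22, and neither passed limma with Benjamini-Hochberg adjustment over all genes (adjusted p = 0.249 and 0.427).

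The genes of uncompacted myelin and of the links to the axon and the surroundings were lower. Prx encodes periaxin, which anchors the outer Schwann cell membrane to the basal lamina through dystroglycan and DRP2. It measured 3.31, 4.19 and 3.95 FPKM in WT sedentary, 4.46, 3.05 and 2.33 in strNrip1-/- sedentary, 2.34, 2.95 and 3.84 in WT trained and 2.66, 3.94 and 4.62 in strNrip1-/- trained libraries. All groups of Prx overlapped, with the widest SD in strNrip1-/- sedentary (1.08, n = 3). Mag encodes myelin-associated glycoprotein, an adhesion molecule of the membrane next to the axon. It measured 0.592, 2.37 and 1.77 FPKM in WT sedentary, 1.65, 0.715 and 0.533 in strNrip1-/- sedentary, 0.825, 0.756 and 0.646 in WT trained and 0.832, 0.657 and 1.34 in strNrip1-/- trained libraries. Mag had the widest spread of the 8, with its highest library 4.45 times its lowest, and the WT sedentary group held both the highest library and 1 of the lowest. Mag was also thinly covered, at about 22 to 95 fragments a library, for which counting error alone is 21.4% at the low end.

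Ncmap encodes a small membrane protein of noncompact myelin. It measured 1.88, 1.40 and 2.23 FPKM in WT sedentary, 1.95, 1.19 and 0.756 in strNrip1-/- sedentary, 0.756, 1.42 and 1.15 in WT trained and 1.14, 1.49 and 1.45 in strNrip1-/- trained libraries. No group of Ncmap stood clear of another, at about 21 to 49 fragments a library. Cnp encodes the cyclic nucleotide phosphodiesterase of noncompact myelin and is also transcribed outside glia. It measured 6.23, 7.17 and 6.72 FPKM in WT sedentary, 4.60, 4.39 and 4.88 in strNrip1-/- sedentary, 6.52, 6.25 and 4.73 in WT trained and 5.55, 6.03 and 5.39 in strNrip1-/- trained libraries. For Cnp the strNrip1-/- sedentary libraries were below all WT sedentary and all strNrip1-/- trained libraries.

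Sox10, the lineage transcription factor, measured 1.55, 1.81 and 1.74 FPKM in WT sedentary, 1.33, 1.51 and 0.906 in strNrip1-/- sedentary, 0.717, 1.39 and 1.37 in WT trained and 1.66, 1.42 and 1.86 in strNrip1-/- trained libraries. The WT sedentary libraries lay above those of strNrip1-/- sedentary and of WT trained, and the strNrip1-/- trained libraries lay above those of WT trained. S100b encodes a calcium-binding protein used as a stain for Schwann cells and made by adipocytes as well. It measured 1.34, 1.43 and 1.71 FPKM in WT sedentary, 2.01, 1.48 and 1.74 in strNrip1-/- sedentary, 1.10, 1.05 and 1.27 in WT trained and 1.40, 0.982 and 2.23 in strNrip1-/- trained libraries. For S100b the WT trained libraries were below all WT sedentary libraries, and the strNrip1-/- trained group held both the lowest and the highest library of the 12.

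Since FPKM is per length, levels can be set beside each other across genes. Over 12 libraries the mean ran from Pmp22 (33.4 FPKM) and Mbp (22.3) through Cnp (5.71) and Prx (3.47) to S100b (1.48), Sox10 (1.44), Ncmap (1.40) and Mag (1.06). Pmp22 was above Mbp, and Cnp above Prx, in 12 of 12 libraries, although their ranges overlapped. The ranges of Mbp and Cnp, and of Prx and S100b, did not overlap. S100b, Sox10, Ncmap and Mag could not be ordered beyond their spread: S100b was above Sox10 in 4 of 12 libraries, Sox10 above Ncmap in 6 and Ncmap above Mag in 10.

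Cnp was the one gene of the 8 called different between labelled genotypes. A gene was called at an adjusted p under 0.05 (limma on log2(FPKM + 0.5), Benjamini-Hochberg over all genes tested) and a fold change over 1.2. In sedentary EDL, Cnp fell by 0.49 on the log2 scale in libraries labelled strNrip1-/- (SE 0.12, adjusted p = 0.041, n = 3 against 3), 1 called gene of 8 beside 3.51% of all genes called in that comparison (1.59% lower and 1.92% higher). The call sat at the threshold and did not survive leaving out most single libraries. The adjusted p was 0.0871, 0.134 and 0.118 without WT sedentary 1, 2 and 3. It was 0.105, 0.107 and 0.0658 without strNrip1-/- sedentary 1, 2 and 3, and 0.0616, 0.0569 and 0.0647 without strNrip1-/- trained 1, 2 and 3. Leaving out any WT trained library kept the call (0.0165 to 0.0443). It was also lost with no filter on low values (0.0584), with rescaling to a common sum of nuclear genes (0.145), and with only the sedentary libraries (0.0737).

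Across the 8 genes the sedentary comparison of genotypes leaned one way without passing the test. Of the 8 estimates 7 were below 0, with a median of -0.38 (log2) where the median of all tested genes was -0.0010, and S100b was at 0.17 ± 0.20. Mbp, Sox10 and Cnp had 3 libraries labelled strNrip1-/- below 3 labelled WT, 3 of 8 beside 10.9% of all genes, and 0 of 8 had them all above, beside 9.79%. An unadjusted p under 0.05 was found for 2 of 8, beside 16.3% of all genes. In bulk muscle, fewer Schwann cells and less RNA per Schwann cell cannot be told apart.

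In trained EDL the estimates pointed the other way. With 5.98% of all genes called (2.77% lower and 3.21% higher), 0 of the 8 were called by limma between labelled genotypes, and 0 had an unadjusted p under 0.05, beside 21.1% of all genes. Of the 8 estimates 6 were above 0 (median 0.24, all genes 0.0066), led by Sox10 (0.40 ± 0.19, adjusted p = 0.269) and Mbp (0.37 ± 0.20, adjusted p = 0.319). Sox10 alone had groups that did not overlap, 1 of 8 beside 13.9% of all genes, and 0 of 8 the reverse, beside 13.4%. Pmp22 and Cnp sat at -0.030 each, and both turned above 0 when libraries were rescaled to a common sum.

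Training gave no call for the 8 genes in either labelled genotype. In EDL labelled WT, 0 of 8 were called by limma, and so were 0% of all genes, while 3 of 8 had an unadjusted p under 0.05 beside 8.33% of all genes. All 8 estimates were below 0 (median -0.37, all genes 0.0017), from Mag (-0.63 ± 0.36) and Mbp (-0.63 ± 0.20, adjusted p = 0.455) to Cnp (-0.20 ± 0.12). Mbp, Sox10 and S100b had 3 trained libraries below 3 sedentary ones, 3 of 8 beside 6.5% of all genes. None of the 8 had them all above, beside 7.76% of all genes. In EDL labelled strNrip1-/-, 0 of 8 and again 0% of all genes were called by limma, with 1 of 8 at an unadjusted p under 0.05 beside 12.1% of all genes. Of the 8 estimates 6 were above 0 (median 0.14, all genes 0.0090), and Cnp (0.27 ± 0.12, adjusted p = 0.394) had groups that did not overlap, 1 of 8 beside 9.4% of all genes, and 0 of 8 the reverse, beside 7.5%.

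**Figure D2:**
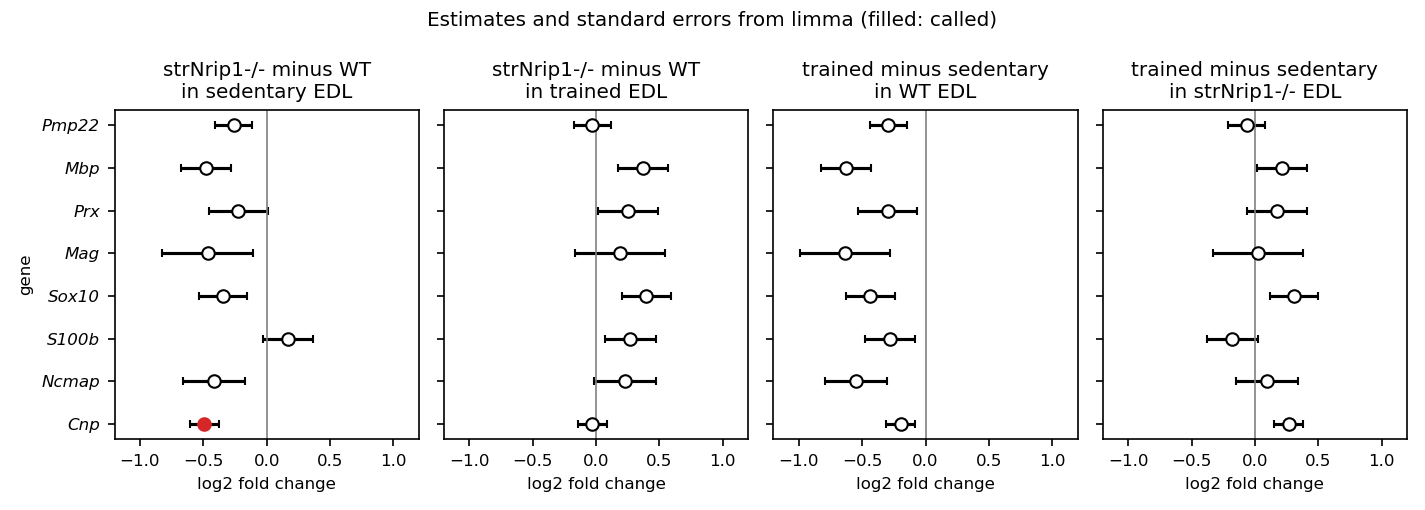
Log2 fold change on the log2(FPKM + 0.5) scale (horizontal axis) with its standard error for the 8 genes (vertical axis) in the 4 comparisons of labelled groups, from limma. The filled point is the called gene, Cnp at -0.49 in sedentary EDL; the estimates for training in WT EDL are all below 0.

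The difference between labelled genotypes in the effect of training was tested as an interaction. Limma called 0 of 8, as 0% of all genes, with adjusted p from 0.579 to 0.960, and 3 of 8 had an unadjusted p under 0.05 beside 7.76% of all genes. The 8 estimates were all above 0, with a median of 0.56 (all genes 0.0072), and were 0.85 ± 0.28 for Mbp, 0.74 ± 0.27 for Sox10 and 0.46 ± 0.16 for Cnp. The estimate of S100b, 0.10 ± 0.28, went to -0.13 without strNrip1-/- trained 3. The comparisons share libraries, so their directions are not separate pieces of evidence. The 8 genes share libraries too, so in every comparison a count out of 8 is not 8 separate observations.

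The 8 genes did not move together to the same degree: Mbp lay closest to the rest, and S100b and Cnp farthest. Correlations below are Pearson's r of log2(FPKM + 0.5) over 12 libraries, given as a description, since all points share libraries and depth. Over the 28 pairs the median r was 0.48 and 27 pairs were positive, where all pairs of tested genes had a median of -0.001 and 49.9% were positive. An r of at least 0.5 was found for 13 of 28 pairs, beside 7.88% of all pairs of genes. The closest pairs were Mbp with Sox10 (r = 0.88, rho = 0.80), Mbp with Prx (0.82, rho = 0.84) and Mbp with Pmp22 (0.81, rho = 0.78). No pair with S100b or Cnp reached 0.5, their highest being S100b with Mag (0.48), and S100b with Cnp was the one negative pair (-0.38). Among the 6 genes other than these, a subset chosen after the values were seen and therefore not tested, r ran from 0.47 to 0.88. With group means removed 13 of 28 pairs were at 0.5 or above, though not the same 13: Pmp22 with Ncmap went from 0.61 to 0.46 and Mag with S100b from 0.48 to 0.53. Without the 2 libraries farthest from the median of the first gene of a pair, 11 of 28 were, and the median r went from 0.48 to 0.44. Among the 6 genes the number at 0.5 or above went from 13 to 9 of 15. Sox10 with Ncmap went from 0.69 to 0.064 and Prx with Sox10 from 0.69 to 0.20, so these relations rest on those libraries. In the same setting 2 pairs of S100b came to 0.5 or above, with Mag (0.63) and with Prx (0.53).

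**Figure D3:**
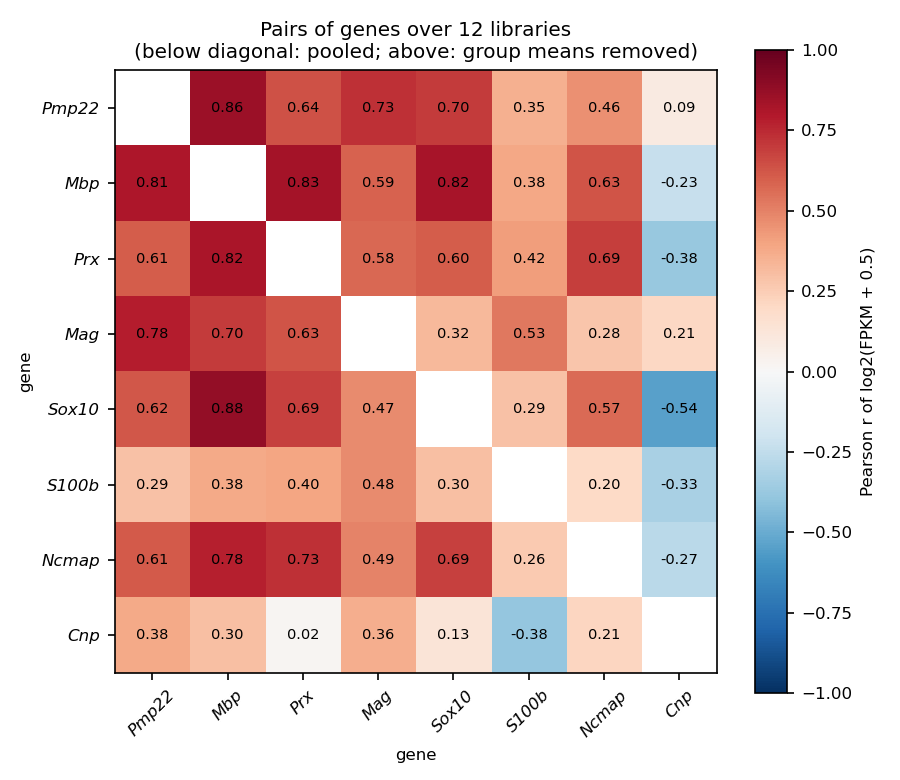
Pearson r of log2(FPKM + 0.5) for the pairs of the 8 genes (both axes) over 12 libraries, pooled below the diagonal and with group means removed above it, on a color scale from -1 to 1. The cells of Cnp are pale or blue, down to -0.54 for Cnp with Sox10 with group means removed.

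For single genes the mean r with the other 7 summarises this. It was 0.67 for Mbp, 0.59 for Pmp22, 0.56 for Mag, 0.55 for Prx and 0.54 for both Sox10 and Ncmap. S100b stood at 0.25 and Cnp at 0.15. Mbp, Pmp22 and Prx each had 5 of their 7 pairs at an r of at least 0.5, Sox10 and Ncmap 4, Mag 3, and S100b and Cnp 0.

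Leaving out single libraries moved these means little for most genes. Over the 12 fits that left out 1 library, the mean r ran from 0.63 to 0.69 for Mbp, 0.53 to 0.63 for Pmp22, 0.51 to 0.60 for Prx and 0.50 to 0.62 for Mag. It ran from 0.50 to 0.60 for Sox10 and 0.47 to 0.60 for Ncmap. S100b ran from 0.15 without WT trained 1 to 0.39 without strNrip1-/- sedentary 3, and Cnp from -0.0037 without WT sedentary 2 to 0.34 without WT trained 1. The ranges of S100b and Cnp thus stayed below those of the other 6.

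Inside the labelled groups the same genes lay together, though less closely. With group means removed, the mean r with the other 7 was 0.56 for Mbp, 0.55 for Pmp22, 0.48 for Prx, 0.46 for Mag, 0.39 for Sox10 and 0.37 for Ncmap. S100b was at 0.26 and Cnp turned negative at -0.21. Taking the 6 sedentary and the 6 trained libraries apart, the mean r was 0.64 and 0.59 for Mbp, 0.65 and 0.42 for Prx, 0.64 and 0.41 for Pmp22, and 0.64 and 0.36 for Mag. Cnp changed sign, from 0.42 in sedentary to -0.33 in trained libraries, and S100b did so the other way, from -0.12 to 0.38.

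**Figure D4:**
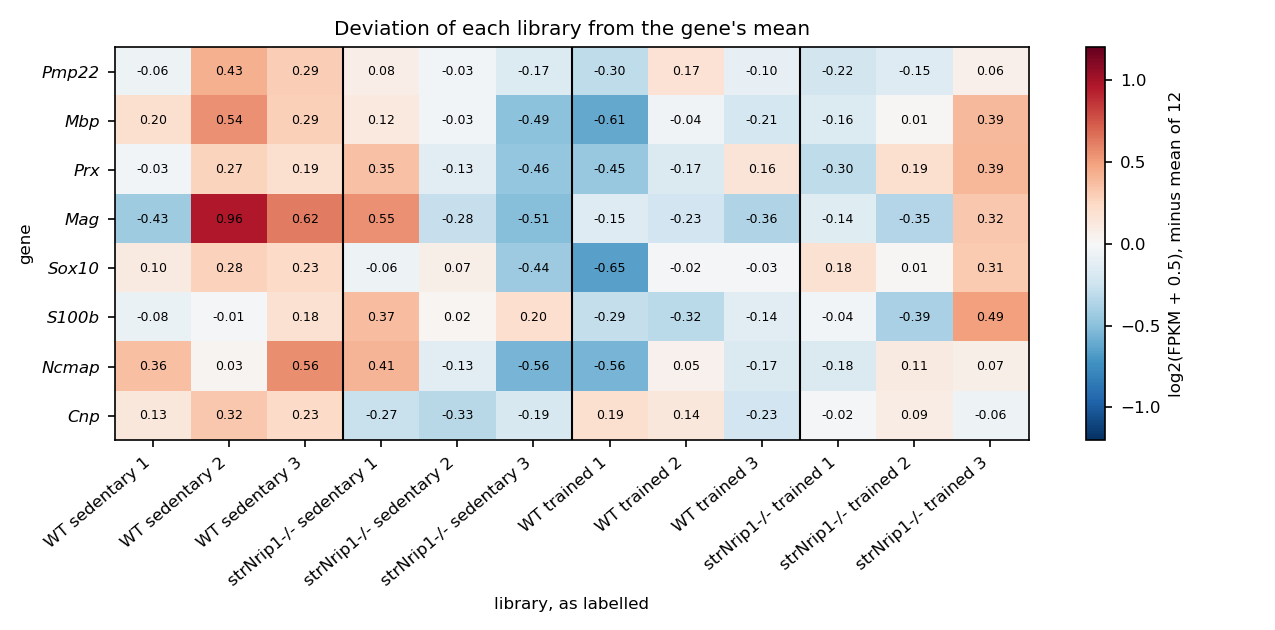
Deviation of log2(FPKM + 0.5) from the gene's mean over 12 libraries, for the 8 genes (rows) in each library as labelled (columns, groups parted by lines), on a color scale from -1.2 to 1.2. WT sedentary 2 and 3 are red for most genes, and strNrip1-/- sedentary 3 and WT trained 1 are blue for most.

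Some libraries stood high or low for most of the genes. The summed level of the 8 genes ran from 53.1 FPKM in WT trained 1 to 95.0 in WT sedentary 2, and most of this sum is Pmp22 and Mbp. WT sedentary 3 was above the gene's own median for 8 of 8 genes, and WT sedentary 2 and strNrip1-/- trained 3 for 7 of 8. At the other end, strNrip1-/- sedentary 3 and WT trained 3 were above it for 1 of 8. WT sedentary 2 was the highest library for 4 genes and strNrip1-/- trained 3 for 3, while strNrip1-/- sedentary 3 and WT trained 1 were each the lowest for 3. The high libraries named here were thus in WT sedentary and strNrip1-/- trained, and the low ones in strNrip1-/- sedentary and WT trained. The split by group was not complete. The library strNrip1-/- sedentary 1 was above the gene's own median for 6 of 8 genes, and strNrip1-/- trained 1 for 2 of 8.

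Other Schwann cell genes varied in how closely they followed the 8. From a list of 18 further genes taken here as markers of Schwann cells, 10 passed the filter. Their expression in other cells of the muscle was not examined. Their mean r with the 8 had a median of 0.28, where that of 12734 other tested genes was 0.00099. Mal (0.67), a myelin proteolipid, Drp2 (0.62), the partner of periaxin, and Cldn19 (0.51), a claudin of the myelin sheath, were at 0.5 or above, 3 of 10 beside 1.04% of other genes. With group means removed 2 of 10 were, beside 0.809% of other genes. Cadm4, an adhesion molecule of the internode, gave 0.47. Erbb3, the receptor for axonal neuregulin, gave 0.033, Gjb1, a gap junction gene of myelin, 0.031, and Lgi4, a ligand secreted by Schwann cells, -0.33. Limma called 0 of the 10 in each comparison. Beside this, 3.51% of all genes were called between sedentary and 5.98% between trained genotypes, and 0% for training and the interaction. With so few genes a count of 0 is near those shares. Their median log2 difference between labelled genotypes was -0.11 in sedentary and 0.18 in trained EDL for the 10 genes.

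**Figure D5:**
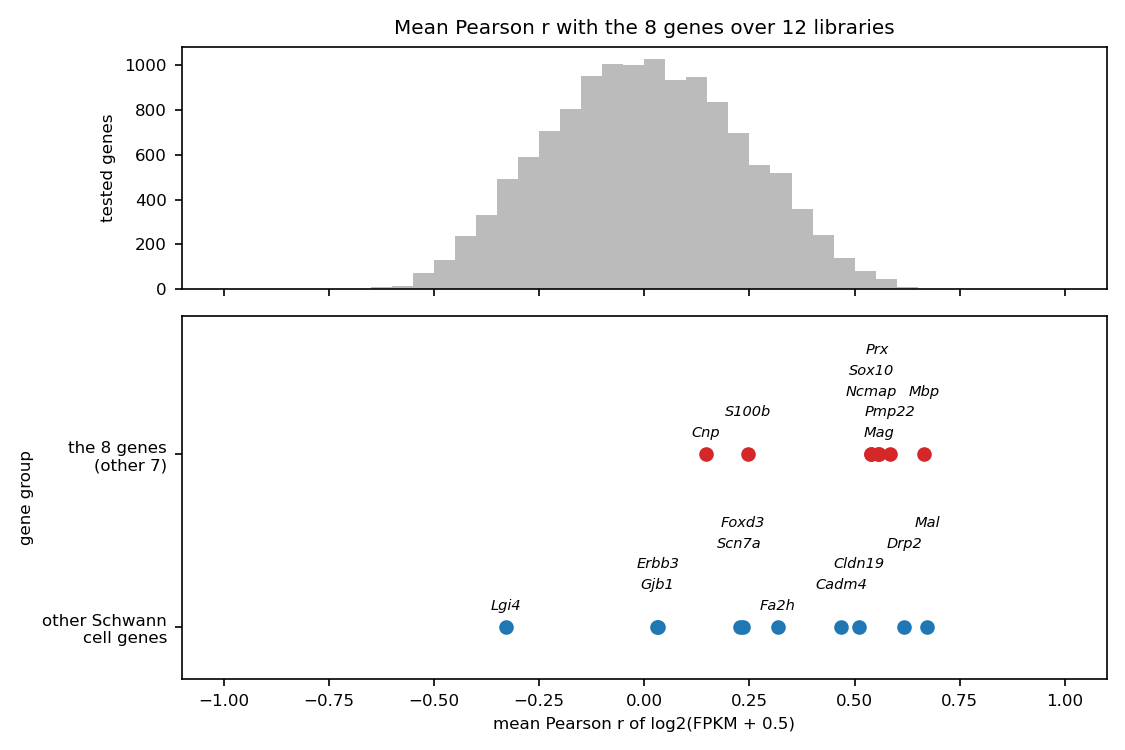
Mean Pearson r of log2(FPKM + 0.5) over 12 libraries (horizontal axis) with the 8 genes for 12734 other tested genes (top, number of genes per bin of 0.05) and for 10 other Schwann cell genes, and with the other 7 for each of the 8 (bottom). Mbp is highest at 0.67 among the 8, S100b and Cnp lie at 0.25 and 0.15, and the other Schwann cell genes run from -0.33 to 0.67.

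A wider list of 40 further genes of the Schwann cell lineage and myelin had 25 that passed the filter. Limma called 0 of 25 in each of the 4 comparisons and in the interaction. Beside this stood 3.51% of all genes between sedentary and 5.98% between trained genotypes, and 0% in the rest, so a count of 0 is near those shares. The median log2 difference of the 25 between labelled genotypes was 0.017 in sedentary and 0.13 in trained EDL, against -0.38 and 0.24 for the 8. The 6 most abundant of the 25 were Dag1 (58.2 FPKM), which is dystroglycan, Mpp6 (30.7), Cd9 (29.5), Itga6 (16.8), Lamc1 (15.9) and Ndrg1 (13.9), and these are also expressed outside Schwann cells. Their mean r with the 8 was -0.25 for Dag1, 0.19 for Mpp6, 0.34 for Cd9, -0.18 for Itga6, 0.25 for Lamc1 and 0.53 for Ndrg1. Egr2, the partner of Sox10 in switching on myelin genes, was below the filter at a mean of 0.206 FPKM.

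The 12734 other genes were ranked by their mean r with the 8 genes over the 12 libraries. The closest was Mal (mean r 0.67), followed by Ezr (0.64), Gsk3a (0.64), Pomp (0.64), Borcs6 (0.64), Dnph1 (0.62), Drp2 (0.62), Zfp385a (0.61) and Slc2a1 (0.61), and then Gm8864, Plekhh3, Kcnu1, Sfrp5, Araf, Riiad1, Moxd1, Slc27a4, Ramac, Tmco6 and Ccdc61 (0.60 to 0.58). Of these 20, 2 are in the Schwann cell list (Mal and Drp2) and 2 in the list of nerve sheath genes (Slc2a1 and Moxd1). The order was not stable: 3 of the 20 were again among the 20 closest once group means were removed.

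Markers of other cells were read beside these results. The 6 oligodendrocyte genes listed were not analysed here. Of 9 neuron and axon genes, 3 passed the filter. Between labelled genotypes in trained EDL, all 3 estimates were above 0 (median 0.48). Uchl1 alone was called, higher in libraries labelled strNrip1-/- than in those labelled WT (0.82 ± 0.19, limma adjusted p = 0.0312). That is 1 of 3, beside 3.21% of all genes called higher. Of 10 nerve sheath genes that passed, 6 had estimates above 0 and 4 below in the same comparison (median 0.027). Ntn4 alone was called, higher in libraries labelled strNrip1-/- (0.37 ± 0.10, limma adjusted p = 0.049), which is 1 of 10 beside the same 3.21%. Of 7 adipocyte genes, Car3, which muscle fibers also make, was called lower between labelled genotypes in both states. That is 1 of 7, beside 1.59% of all genes called lower in sedentary and 2.77% in trained EDL. The other 6 had estimates above 0 in both, none of them called, and the median of the 7 was 0.99 (log2) in sedentary and 0.15 in trained EDL. Their estimates were all above 0 for training in WT (median 0.56) and all below 0 in the interaction (median -0.95), the reverse of the 8 genes, and 0 of 7 were called by limma in either. The summed adipocyte level overlapped between all groups (269.8 to 667 FPKM over the 12 libraries). This sum includes Car3, which went the other way from the other 6 (-1.80 in sedentary and -2.16 in trained EDL, log2). It is therefore no measure of fat alone. Fibroblast and tendon genes also lay below 0 in the interaction, 7 of 7 in each list (medians -0.35 and -0.50). Between labelled genotypes in trained EDL, 6 of 7 tendon genes had estimates below 0 and 1 above (median -0.42). Kera, a tendon and stromal proteoglycan, was called lower there in libraries labelled strNrip1-/- (-0.66 ± 0.12, limma adjusted p = 0.00982). That is 1 of 7, beside 2.77% of all genes called lower. The 5 blood genes lay below 0 for training in WT (median -0.59) and above 0 in the interaction (median 0.25), with 0 of 5 called by limma. The summed level of 8 endothelial genes was 81.9 to 94.1 FPKM in libraries labelled WT and 97.9 to 112 FPKM in those labelled strNrip1-/-. In trained EDL, 7 of the 8 had estimates above 0 between labelled genotypes and 1 below (median 0.26). Tie1, an endothelial receptor, was called higher there in libraries labelled strNrip1-/- (0.42 ± 0.081, limma adjusted p = 0.0125). That is 1 of 8, beside 3.21% of all genes called higher. The part of these cells in the results for the 8 genes was not tested.

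Base composition varied between libraries. The slope of a library's deviations on the GC content of the gene, in log2 units per 10 percentage points, ran from -0.079 in WT trained 1 to 0.098 in strNrip1-/- trained 3. It was -0.079 to -0.013 in WT trained and 0.048 to 0.098 in strNrip1-/- trained libraries, so in trained muscle it separated the labelled genotypes. Its r was 0.65 with Sox10 (permutation p = 0.0185, rho 0.70, permutation p = 0.0141) and 0.54 with Mbp (permutation p = 0.0708, rho 0.57, permutation p = 0.0578). Without the 2 libraries of the most extreme slope these were 0.71 and 0.52, and within groups 0.67 and 0.78. Among 24 such relations, of the 8 genes with this slope, the estimated library size and the mitochondrial share, the lowest adjusted p was 0.354 (permutation). Sox10 is richer in GC than 97.9% of tested genes and Prx than 89.2%, while S100b is at 34.7%.

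With trends on GC content and length taken out of every library, an alternative chosen after seeing the data, the genes lay about as close together. The mean r with the other 7 was 0.66 for Mbp, 0.60 for Pmp22, 0.58 for Prx, 0.56 for Mag, 0.56 for Sox10 and 0.53 for Ncmap, and 0.23 for S100b and 0.14 for Cnp. Cnp kept its call in sedentary EDL (-0.50, limma adjusted p = 0.0333), while 5 of 8 estimates in trained EDL moved by over 1.5 times. There Sox10 went from 0.40 to 0.23, Prx from 0.25 to 0.14 and Mag from 0.19 to 0.087. Pmp22 went from -0.030 to -0.075 and Cnp from -0.030 to -0.11. For training in strNrip1-/- 4 of 8 moved that far, and 0 of 8 did in each of the other comparisons. The median r over the 28 pairs was 0.48 as before.

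The estimated depth was 19960000 to 29100000 fragments a library, and the mitochondrially encoded share of summed FPKM was 42.2% to 52.8%, highest in strNrip1-/- sedentary (51.2% to 52.8%). Cnp, lowest in that group, had an r of -0.63 with this share (permutation p = 0.0295, rho -0.41, permutation p = 0.195), 0.71 within groups (exact permutation p = 0.0802) and -0.45 without the 2 most extreme libraries. Its part in the Cnp call was not tested beyond the rescaling on nuclear genes given above.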

How the data were processed

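RNA from EDL muscle was sequenced in 12 libraries, 3 per group, with an unstranded NEBNext Ultra kit. Per the labels and the study's methods, the authors quantified reads with Salmon 1.10.2 on mm10 and deposited gene-level FPKM values, with no read counts. The annotation release is not given in the sources used here. The same deposited table holds log2 fold changes and adjusted p-values of the authors' DESeq2 1.44.0 comparisons, which were not used.

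FPKM was analysed as log2(FPKM + 0.5) with limma 3.58.1 in R 4.3.3 (4 group means, trended prior, two-sided) over the 12744 genes averaging 0.5 FPKM or more, with Benjamini-Hochberg adjustment. Fold changes on this scale understate the change of low genes. Correlations with library measures used 100000 two-sided permutations (Python 3.11.15, numpy 2.4.6), or exact permutation within groups. Pairs of genes were described with no p, instead of the adjustment over the pairs first planned. Some planned results are not reported here, and 2 tested genes were left out of the correlation rankings. Scripts were tested on simulated data.

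The library size used in the scaling was estimated from the steps of low FPKM values. At 19960000 to 29100000 fragments, 99.2% to 99.6% of the low values of 1619 single-transcript genes were within 0.15 of a whole fragment, where 30% would be by chance. Fragments per gene from it are approximate, and their counting error covers counting alone. GC content and length came from GENCODE transcripts (12734 of 12744 tested genes), and promoters from RefSeq on GRCm38.p6.

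The 8 genes, the lists and the tests were chosen with earlier results of these data known. Named were the 8 genes and Nrip1, other Schwann cell genes that were called or among the 6 most abundant, and the 20 genes most like the 8. Cadm4, Cldn19, Drp2, Erbb3, Gjb1, Lgi4, Egr2 and the called markers of other cells were named after their values were seen. Alternatives were other pseudocounts (0.1 and 1), no filter or a minimum mean of 5 FPKM, rescaling, quantile normalization, fewer libraries, a replicate block and removal of GC and length trends.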

Additional observations from a re-analysis of the deposited data

How the results depend on the processing

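Log2 fold changes of the 8 genes were refitted in each of the 4 comparisons and the interaction. Direction and call held in 357 of 367 such estimates under other settings and 459 of 480 with 1 library left out. Much of this agreement was fixed in advance. Changing the filter, adding the replicate block or leaving out libraries outside the compared groups does not alter an estimate. Apart from Cnp in sedentary EDL, no estimate had a call to lose. That call was lost in 9 of 12 fits that left out 1 library. Reversals touched estimates near 0. In trained EDL, Pmp22 went to 0.033 and Cnp to 0.030 with rescaling to a common sum, and to 0.0069 and 0.0047 on nuclear genes. For training in EDL labelled strNrip1-/-, Pmp22 went to 0.11 with the common sum and Mag to -0.030 without GC and length trends. The common sum shifts the median of all genes by -0.14 between sedentary genotypes and by 0.16 for training in strNrip1-/-. With 1 library left out, the trained difference ran from -0.14 to 0.092 for Pmp22 and -0.16 to 0.050 for Cnp. For training in strNrip1-/- it ran from -0.19 to 0.34 for Mag, -0.014 to 0.39 for Prx, -0.14 to 0.35 for Ncmap and -0.41 to 0.029 for S100b, and the interaction of S100b from -0.13 to 0.31.

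Of the 8 genes, 0 instead of 1 were called in sedentary EDL with no filter, with nuclear rescaling, with only the compared libraries and with the replicate block, and 0 to 1 with 1 library left out. Genes called over the whole table went from 447 to 166 (sedentary) and from 762 to 445 (trained) with only the compared libraries, where fewer samples enter. For training in WT they went from 0 to 8 at a mean of at least 5 FPKM, 1 with the common sum, 2 on nuclear genes, 4 with quantile normalization and 4 with the replicate block. For training in strNrip1-/- they went from 0 to 5 at a mean of at least 5 FPKM, 150 with the common sum and 3 on nuclear genes. Apart from the compared-libraries fits, the cause was not tested. With 1 library left out these counts ran from 163 to 478, 315 to 874, 0 to 30 and 0 to 4, and from 0 to 1 for the interaction.

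The median r over the 28 pairs ran from 0.43 to 0.57 with 1 library left out.

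Libraries of different groups with the same replicate number did not deviate together: r of their deviations was -0.10 to 0.24 over 18 pairs, 5 of them over 0.1, and 4 of 12 libraries correlated best with their own number. The replicate block is therefore no pairing, and under it Cnp in sedentary EDL had an adjusted p of 0.0578 (limma). Depth limits Mag, Ncmap and S100b most, at about 21 to 95 fragments a library.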
